A study of Mus musculus with 16 samples.

Results

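Primary hepatocytes given a lipid mixture and itaconate together were compared with untreated hepatocytes of the same experiment. The members were the 4 libraries labelled lipid + itaconate and the 4 labelled untreated, 8 of the 16 RNA-seq libraries of the series, chosen by the treatment and the replicate letter in their names. Each group held 1 library of each letter, A to D, and the libraries of a letter were compared with each other. The other 8 libraries were hepatocytes given lipid alone (4) or itaconate alone (4), and they enter below only where the combined state is set beside them. All cells came from the livers of wild-type mice, which the study's methods describe as young adult males, and were kept overnight in DMEM with fetal bovine serum and an insulin, transferrin and selenium supplement. Treated cells received 10 mM sodium itaconate, a 10-fold dilution of a chemically defined lipid mixture, or both. That mixture holds arachidonic, linoleic, myristic, oleic, palmitic and stearic acids together with cholesterol, so its effects cannot be divided between fatty acids and sterol here. The labels do not say whether a letter stands for a mouse, a preparation or a culture, and p-values therefore measure the spread between these samples only.

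Hepatocytes take up fatty acids and cholesterol from the blood, burn or store the former and turn the latter into bile acids. When sterol accumulates in the endoplasmic reticulum (ER), the SREBP transcription factors are held back and the genes of cholesterol synthesis and uptake fall; polyunsaturated fatty acids also lower SREBP-1 activity, while other fatty acids can act as ligands of PPAR alpha, which drives oxidation genes. Itaconate is a dicarboxylic acid that activated macrophages make from cis-aconitate with the enzyme ACOD1. It inhibits succinate dehydrogenase and is known in macrophages for damping inflammatory and interferon gene programs.

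Levels are expected counts per 1000000 counts of a library (CPM), scaled by the trimmed mean of M values (TMM), and differences are log2 changes in lipid + itaconate against untreated from edgeR's quasi-likelihood test, with the letter in the model. A gene passed the test at a Benjamini-Hochberg adjusted p under 0.05 over the 11675 genes averaging 1 CPM or more. Totals ran from 22346049 to 28619798 expected counts in the untreated libraries and from 25812579 to 35378517 in the lipid + itaconate libraries. The 12 hepatocyte markers summed to between 56504 and 75754 CPM in untreated and between 49206 and 71746 CPM in lipid + itaconate libraries, most of it in albumin and transferrin, as the label would have it. No lymphocyte or neutrophil marker of 13 reached the level of testing. Of 13 stellate cell and fibroblast markers 2 were tested, and 1, Acta2, was at 0 in all 8 libraries. These markers summed to between 27.0 and 30.8 CPM in untreated and between 21.9 and 28.1 CPM in lipid + itaconate libraries. Lipid + itaconate library B stood apart. Gm42418, a locus that overlaps ribosomal RNA, took 3.52% of its counts, against 0.122 to 0.2% in the other lipid + itaconate libraries and 0.148 to 0.678% in the untreated ones. Lars2 read 4267 CPM there and 151 to 224 CPM in the other lipid + itaconate libraries. Where leaving out 1 library moved a list's count of 4 or more genes by over 1.5 times, that library is named beside the count.

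The combined treatment changed a large share of the expressed genes, mostly by little. Of the 11675 genes, 4716 passed the test, 40.4% of those tested; 2351 were higher (20.1%) and 2365 lower (20.3%). The median change of the genes that passed was 0.31 in size on the log2 scale, against a median standard error of 0.073 over all genes. With a change of at least 1.5-fold as well, 843 genes remained (7.22%), of which 376 were higher (3.22%) and 467 lower (4.00%). At 2-fold or more, 149 genes were lower and 77 higher. Among the 843 genes, 813 moved in 1 direction in all 4 letters, as did 5683 of all genes tested. No overlap between the 4 untreated and the 4 lipid + itaconate values was found in 678 of the 843 and in 3239 of all genes tested. The share that passed grew with the level, from 28.0% of the 2047 genes under 5 CPM to 45.1% of the 1913 genes over 100 CPM, while the median standard error fell from 0.197 to 0.048. In a principal component analysis of the 8 libraries, the first component (41.9% of the variance) separated the groups, with untreated libraries between -23.11 and -16.93 and lipid + itaconate libraries between 14.9 and 24.32. The second (20.5%) separated the letters instead, with A and B on 1 side and C and D on the other in both groups. Scaled by library totals alone, 2683 genes were higher and 1867 lower, so the near-even split depends on the scaling. Each list below was described by its counts and median against these shares, with no test of the list itself, and the median change of all genes was 0.005.

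**Figure D1:**
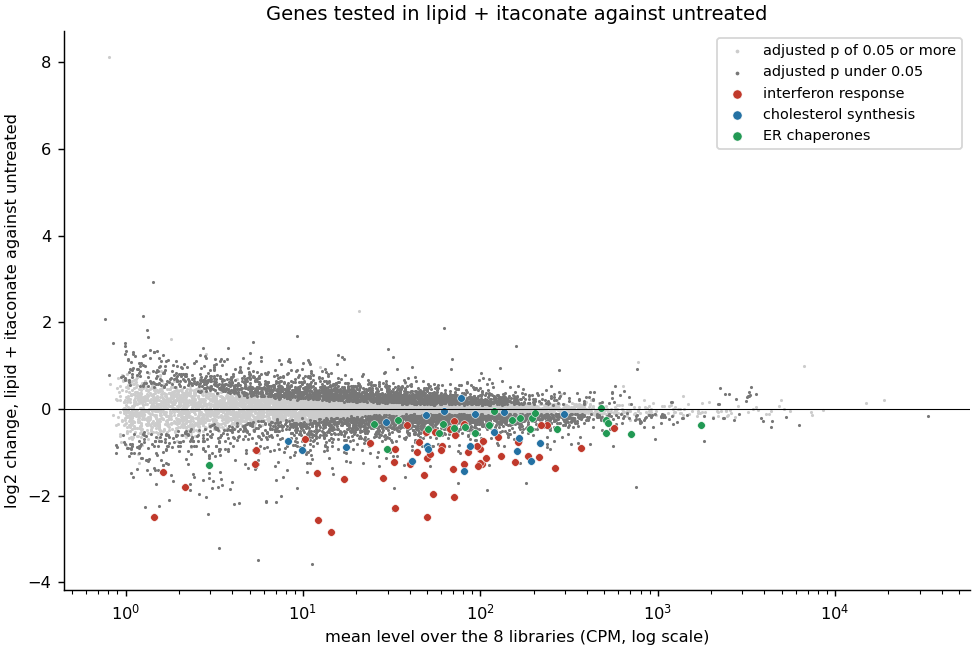
Log2 change in lipid + itaconate against untreated (vertical axis) against the mean level of each of the 11675 genes over the 8 libraries (horizontal axis, CPM, log scale); dark grey points passed the test and coloured points belong to 3 gene lists. The 54 interferon response genes lie below 0, at a median of -1.09, and the cholesterol synthesis enzymes and ER chaperones lie mostly below 0, at medians of -0.76 and -0.37.

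Genes induced by interferon fell together, and 6 of the 12 largest falls named by the rule were theirs. These genes are switched on when interferon receptors activate their transcription factors, and their products block viral replication. Of 56 listed genes 54 were tested, and all 54 were lower, 45 of them by at least 1.5-fold, with log2 changes from -2.83 to -0.28. The count of lower genes was 54 in each of the 17 alternative settings, library B left out included.

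Ifit3, whose product binds viral RNA together with IFIT1, was at 97.8, 45.3, 74.5 and 123 CPM in untreated libraries A to D and at 15.3, 11.8, 13.6 and 17.5 CPM in lipid + itaconate libraries A to D. The groups did not overlap, with letter B lowest and D highest in both. The change was -2.50 ± 0.12 (SE; adjusted p = 4.71e-10). Ifit3 and its near-identical neighbour Ifit3b (-2.83 ± 0.13) can exchange reads in the counting, so the value of each is uncertain while both were lower in all 4 letters. Ifit1 (chr19:34640871-34650009, plus strand in mm10) read 127, 66.5, 104 and 159 CPM in untreated and 29.6, 15.8, 29.0 and 36.3 CPM in lipid + itaconate libraries. That was a change of -2.03 ± 0.089 on the log2 scale (adjusted p = 4.71e-10), again without overlap.

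Among the largest falls were also Oasl2 (-2.57 ± 0.23), a relative of the antiviral 2-5A synthetases, and Ifi44 (-2.28 ± 0.15). Tgtp1, an interferon-inducible GTPase that the list did not hold, fell by 2.33 ± 0.13 from 34.0 to 74.1 CPM to 6.90 to 14.0 CPM. The smallest p in the interferon list was that of Cmpk2, a mitochondrial nucleotide kinase. It stood at 94.5, 52.5, 88.5 and 109 CPM in untreated and 21.1, 13.9, 23.2 and 31.1 CPM in lipid + itaconate libraries, a change of -1.95 ± 0.063 (adjusted p = 1.75e-11). Oasl1, which limits translation of Irf7, changed by -1.27 ± 0.049 (adjusted p = 8.64e-11). For Irf7, the factor that amplifies interferon production, untreated hepatocytes had 102 ± 19.4 CPM and those given both 39.1 ± 9.57 CPM (mean ± SD, n = 4 each). Its change was -1.38 ± 0.093, and the groups did not overlap. Abundant members fell as well, such as Rsad2, which makes the chain-terminating nucleotide ddhCTP, from 228 to 542 CPM to 113 to 199.9 CPM. The ubiquitin-like Isg15 went from 142, 103, 129 and 181 CPM to 53.9, 44.9, 54.7 and 84.0 CPM, a change of -1.24 ± 0.058 (adjusted p = 4.71e-10).

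Promoter sequences are shown because these genes fell together and because interferon receptors are known to act through the interferon-stimulated response element (ISRE). They were read from RefSeq on GRCm38.p6, 250 bases before to 50 after a gene's start, for the 8999 of 11675 tested genes with an entry. The letters GAAANNGAAA were searched on both strands and may overlap themselves. They stood in the promoters of 20 of the 41 interferon response genes with an entry (48.8%), against 3.62% of the 8999 tested genes and 3.44% of all 32851 promoters. Of the genes lower by at least 1.5-fold 15.2% held them (48 of 316), and of those higher by at least 1.5-fold 1.75% (5 of 285). Such a match is a description of the letters and not evidence of binding. The stretches below lie upstream of the start on chr19:34583343-34583446 (Ifit3, plus strand), chr19:34640755-34640843 (Ifit1, plus strand), chr4:156200845-156200926 (Isg15, minus strand), chr12:26456533-26456602 (Rsad2, minus strand) and chr5:92349063-92349132 (Cxcl10, minus strand), each read 5′ to 3′ along its gene with the matches in capitals.
Ifit3: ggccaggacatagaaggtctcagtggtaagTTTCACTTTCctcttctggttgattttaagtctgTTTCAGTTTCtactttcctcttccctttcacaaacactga
Ifit1: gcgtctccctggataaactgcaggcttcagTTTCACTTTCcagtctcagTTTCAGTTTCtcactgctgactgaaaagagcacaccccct
Isg15: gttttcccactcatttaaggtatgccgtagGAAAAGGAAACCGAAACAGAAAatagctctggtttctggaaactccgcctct
Rsad2: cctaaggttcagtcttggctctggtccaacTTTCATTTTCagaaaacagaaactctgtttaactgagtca
Cxcl10: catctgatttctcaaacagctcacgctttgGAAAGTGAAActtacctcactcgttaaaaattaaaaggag
Ifit3 and Ifit1 each carried 2 matches on the strand opposite to the gene, and Isg15 carried 3 that run into each other.

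Chemokines and other genes driven by NF-kB, the transcription factor of inflammatory signalling, also fell. Of 23 tested members of 30 listed, 21 were lower and none higher, 12 of them by at least 1.5-fold, at a median of -0.67. Vcam1, an adhesion receptor for leukocytes, dropped from 9.04, 7.65, 4.86 and 5.24 CPM in untreated libraries A to D to 1.45, 1.81, 1.08 and 1.46 CPM in lipid + itaconate libraries A to D. The 2 groups were far apart, with a change of -2.2 ± 0.16 (adjusted p = 1.14e-07). Ccl2, the monocyte attractant, read 130.4, 151, 88.6 and 94.97 CPM and then 31.2, 27.9, 43.9 and 33.6 CPM, a change of -1.70 ± 0.23 (adjusted p = 3.08e-05). Here letter C, with the lowest untreated value, had the highest treated value. Cxcl10, which attracts T cells and responds to both NF-kB and interferon, went from 171, 134, 156 and 172 CPM to 69.4, 54.2, 63.1 and 73.2 CPM (-1.28 ± 0.047, adjusted p = 5.31e-11). The neutrophil attractants Cxcl1 and Cxcl2 changed by -0.85 ± 0.10 and -2.0 ± 0.19. Nfkbiz, an IkB protein that NF-kB itself induces, changed by -0.86 ± 0.071 and the feedback inhibitor Tnfaip3 by -0.67 ± 0.072; all of these groups were separate.

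Macrophage markers were mostly lower in this comparison as well. Of 16 Kupffer cell and macrophage markers 11 were tested; 9 were lower, each by at least 1.5-fold, and 1, Cd68, was higher. The list summed to between 249.99 and 339.8 CPM in untreated and between 232 and 344 CPM in lipid + itaconate libraries, with most of it in Cd68, a lysosomal protein that is not confined to macrophages. Without Cd68, left out after its values were seen, the sums were 97.3 to 114 CPM and 36.5 to 57.0 CPM. Mpeg1, a pore-forming protein of macrophages that interferon also induces, carried the largest part and went from 58.9, 47.5, 32.2 and 64.8 CPM to 11.2, 14.1, 13.3 and 17.6 CPM (-1.82 ± 0.15, adjusted p = 2.24e-07). Cd5l, a scavenger protein secreted by Kupffer cells, went from 12.6 to 15.0 CPM to 5.93 to 11.8 CPM (-0.72 ± 0.14). No marker of this list was at 0 in all 8 libraries. In bulk RNA, fewer cells of a type and less RNA per cell cannot be told apart, and the part of the macrophage RNA in the interferon and chemokine results was not tested. Liver endothelial markers summed to between 34.6 and 54.1 CPM in untreated and between 31.9 and 46.6 CPM in lipid + itaconate libraries, with 2 of 11 tested members lower and none higher. Neither of the 2 stellate cell markers tested passed.

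Secreted proteins of the acute phase and of complement and coagulation were lower more often than higher. In the acute phase list, 14 of 26 tested members were lower and 2 higher, and 6 were lower without the letter in the model. Saa3, a serum amyloid protein, stood at 132, 120.2, 111 and 84.3 CPM in untreated and 68.7, 65.9, 57.7 and 54.3 CPM in lipid + itaconate libraries (-0.85 ± 0.066, adjusted p = 1.73e-07), with no overlap. Il1rn, the soluble antagonist of the interleukin-1 receptor, changed by -1.24 ± 0.14 and Steap4, a metalloreductase, by -0.81 ± 0.10. Of the genes that met the naming rule, Clu, the secreted chaperone clusterin, lost the most transcripts in CPM. It went from 7046 ± 436 to 5481 ± 445 CPM (SD, n = 4), and Cp, the copper carrier ceruloplasmin, went from 2285 ± 198 to 1356 ± 164 CPM (SD, n = 4). Their log2 changes were -0.36 ± 0.055 and -0.74 ± 0.10. In complement and coagulation, 17 of 34 tested were lower and 2 higher, including complement C3 (-0.27 ± 0.046) and factor B, Cfb (-0.35 ± 0.049). Pros1, protein S, was the single member past 1.5-fold, at -0.61 ± 0.11. This list's lower count was 8 without the letter in the model, 11 with the 8 libraries alone, and 11 without untreated library A or library D of either group.

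**Figure D2:**
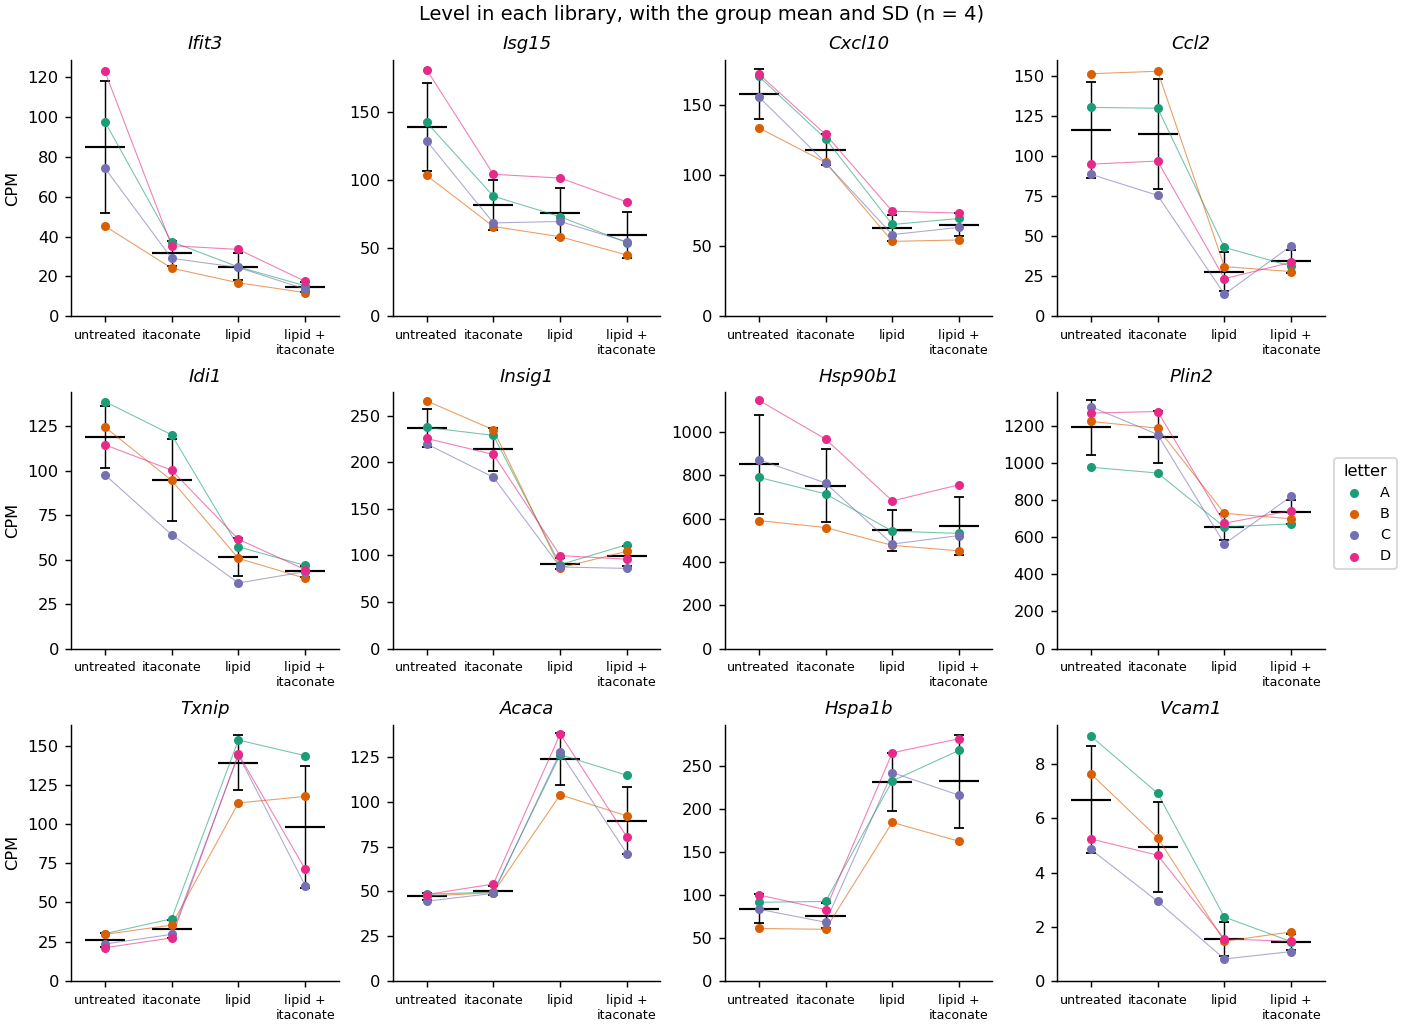
Level of 12 genes in each of the 16 libraries (vertical axes, CPM, starting at 0), with points and thin lines coloured by letter, and black bars for the group mean and SD (n = 4). Ifit3 was at 11.8 to 17.5 CPM with lipid + itaconate against 45.3 to 123 CPM untreated, while Txnip was at 60.7 to 144 CPM against 21.2 to 30.1 CPM.

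The enzymes that build cholesterol fell as a group. Of 20 enzymes, all tested, 15 were lower and none higher, 12 by at least 1.5-fold, at a median of -0.76. Idi1, isopentenyl diphosphate isomerase (chr13:8885501-8892451, plus strand in mm10), was at 139, 125, 97.8 and 115 CPM in untreated libraries A to D and at 46.7, 39.5, 43.2 and 44.4 CPM in lipid + itaconate libraries A to D. Every treated value lay well below the lowest untreated one, and the change was -1.44 ± 0.10 (adjusted p = 6.68e-08). Hmgcs1, which makes HMG-CoA, read 299, 283, 225 and 275 CPM and 119, 109.8, 116 and 123 CPM (-1.20 ± 0.085, adjusted p = 6.03e-08). Fdps, farnesyl diphosphate synthase, went from 292, 292, 246 and 269 CPM to 162, 168, 139.6 and 168 CPM (-0.78 ± 0.057, adjusted p = 7.92e-08). All 3 were lower in every letter without overlap. Further down the pathway, lanosterol synthase Lss changed by -1.20 ± 0.092, the demethylase Cyp51 by -0.97 ± 0.094 and the methyl oxidase Msmo1 by -0.66 ± 0.083.

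In the list of sterol sensing and uptake, 5 of 12 tested members were lower and 1 higher. Insig1, which holds SREBP in the ER, was at 237, 266, 219.6 and 226 CPM in untreated and 111, 104, 86.0 and 95.8 CPM in lipid + itaconate libraries, less than the lowest untreated value in every one (-1.26 ± 0.065, adjusted p = 1.68e-09). Among targets of the oxysterol receptor LXR and sterol exporters, 5 of 10 tested were lower and 1 higher. The exporter Abca1 went from 129 to 168 CPM to 117 to 127 CPM (-0.31 ± 0.054), lipoprotein lipase Lpl changed by -1.23 ± 0.11, and Srebf1, which encodes SREBP-1, by -0.62 ± 0.066 (adjusted p = 3.84e-06). Bile acid genes were divided, with 5 of 17 tested lower and 2 higher. Lower members numbered 10 without lipid + itaconate library B, 1 without library C of either group, and 2 without untreated library A, library D of either group or the letter in the model. Cyp8b1, the sterol 12-hydroxylase that sets the cholic acid share, stood at 10.4, 9.40, 8.18 and 8.13 CPM and then 23.1, 18.6, 12.6 and 15.7 CPM (0.93 ± 0.084, adjusted p = 7.37e-07). The canalicular exporter Abcc2 moved the other way (-0.41 ± 0.048).

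Fatty acid desaturases fell while the enzyme of the first committed step of synthesis rose. In the list of synthesis and desaturation, 12 of 21 tested members were lower and 1 higher. The front-end desaturases Fads1 and Fads2, which make long polyunsaturated fatty acids, went from 399, 419, 481 and 497 CPM to 253, 244, 276 and 277 CPM and from 406, 435, 488 and 459 CPM to 291, 278, 284 and 286 CPM. Neither overlapped, with changes of -0.77 ± 0.055 (adjusted p = 7.34e-08) and -0.65 ± 0.050 (adjusted p = 1.53e-07). Scd2, a stearoyl-CoA desaturase of low level in liver, was among the 12 largest falls named by the rule, at -2.15 ± 0.19. The abundant Scd1 read 5567, 5919.6, 3747 and 4310.3 CPM in untreated and 4808, 5455, 2412 and 2683 CPM in lipid + itaconate libraries. Letters A and B were higher than C and D in both groups and the groups overlapped, and the change of -0.41 ± 0.077 (adjusted p = 0.000625) did not pass without the letter in the model (adjusted p = 0.353). Acaca, acetyl-CoA carboxylase 1, was the member that rose. It stood at 48.4, 47.4, 44.5 and 48.3 CPM and then 115, 92.2, 71.0 and 80.3 CPM, a change of 0.92 ± 0.10 (adjusted p = 6.06e-06).

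Oxidation genes were lower rather than higher. Of the 31 genes of fatty acid oxidation, all tested, 19 were lower and 2 higher, only 2 of them by at least 1.5-fold. Acox2, the peroxisomal oxidase of branched chains and bile acid precursors, was at 64.8, 74.3, 67.5 and 70.1 CPM in untreated and at 42.4, 38.7, 36.8 and 35.0 CPM in lipid + itaconate libraries (-0.85 ± 0.053, adjusted p = 1.29e-08). The peroxisomal bifunctional enzyme Ehhadh changed by -0.81 ± 0.084 and Acsl1, which activates long-chain fatty acids, by -0.56 ± 0.065. The study names some fatty acid genes for changes with itaconate, alone or on top of lipid, which is not the comparison made here. They were chosen on these samples and are no independent evidence. Of 4 tested, Hadha (-0.40 ± 0.046) and Eci2 (-0.26 ± 0.058) were lower. Echs1 (-0.31 ± 0.052) and Aldh1b1 (0.58 ± 0.19, adjusted p = 0.0253) lost the call without the letter in the model, Aldh1b1 also in 6 other settings. With lipid alone against untreated, 3 of these 4 were lower and 1 higher, and with itaconate alone 1 was higher. None of the 4 passed in lipid + itaconate against lipid. Among PPAR alpha targets outside oxidation, 11 of 23 tested were lower and 2 higher. Pdk4, the kinase that shuts pyruvate dehydrogenase, went from 236, 333, 335 and 328 CPM to 158, 210.2, 153 and 148 CPM (-0.87 ± 0.085, adjusted p = 1.66e-06). Angptl4, an inhibitor of lipoprotein lipase, went from 120.3 to 145 CPM to 67.5 to 89.3 CPM (-0.80 ± 0.071, adjusted p = 6.42e-07). Creb3l3, an ER-bound factor that drives Apoa4 and Fgf21, was 1 of the members that rose, from 101, 113, 105.4 and 93.3 CPM to 167, 179.9, 159 and 146 CPM (0.66 ± 0.036, adjusted p = 2.94e-09).

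Storage and export of lipid were described by separate lists. Among lipid droplet and lipolysis genes, 6 of 20 tested were lower and 2 higher. Plin2, the main coat protein of hepatocyte lipid droplets, was at 977, 1224, 1304 and 1269 CPM in untreated and at 672, 699.8, 820.4 and 744 CPM in lipid + itaconate libraries. Every treated value was below every untreated one (-0.70 ± 0.083, adjusted p = 1.12e-05). The lipase gene Pnpla2 changed by -0.43 ± 0.076 and the coat protein gene Plin4 by -0.77 ± 0.16. In the apolipoprotein and assembly list 4 of 19 were higher and 2 lower, or 5 lower without lipid + itaconate library B. Mttp, which loads lipid onto apolipoprotein B, rose from 73.7, 81.3, 79.1 and 77.2 CPM to 134, 167, 101 and 114 CPM (0.72 ± 0.10, adjusted p = 5.97e-05). Apoa4, an apolipoprotein of secreted particles, and Apoa5, an activator of lipoprotein lipase, rose by 0.42 ± 0.051 and 0.61 ± 0.070. Angptl8, an insulin-induced regulator of that lipase, rose by 1.21 ± 0.18, with 24.9, 19.4, 17.4 and 14.0 CPM untreated and 65.0, 64.3, 22.8 and 30.1 CPM treated. Its groups overlapped, and treated letters C and D lay well below A and B.

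**Figure D3:**
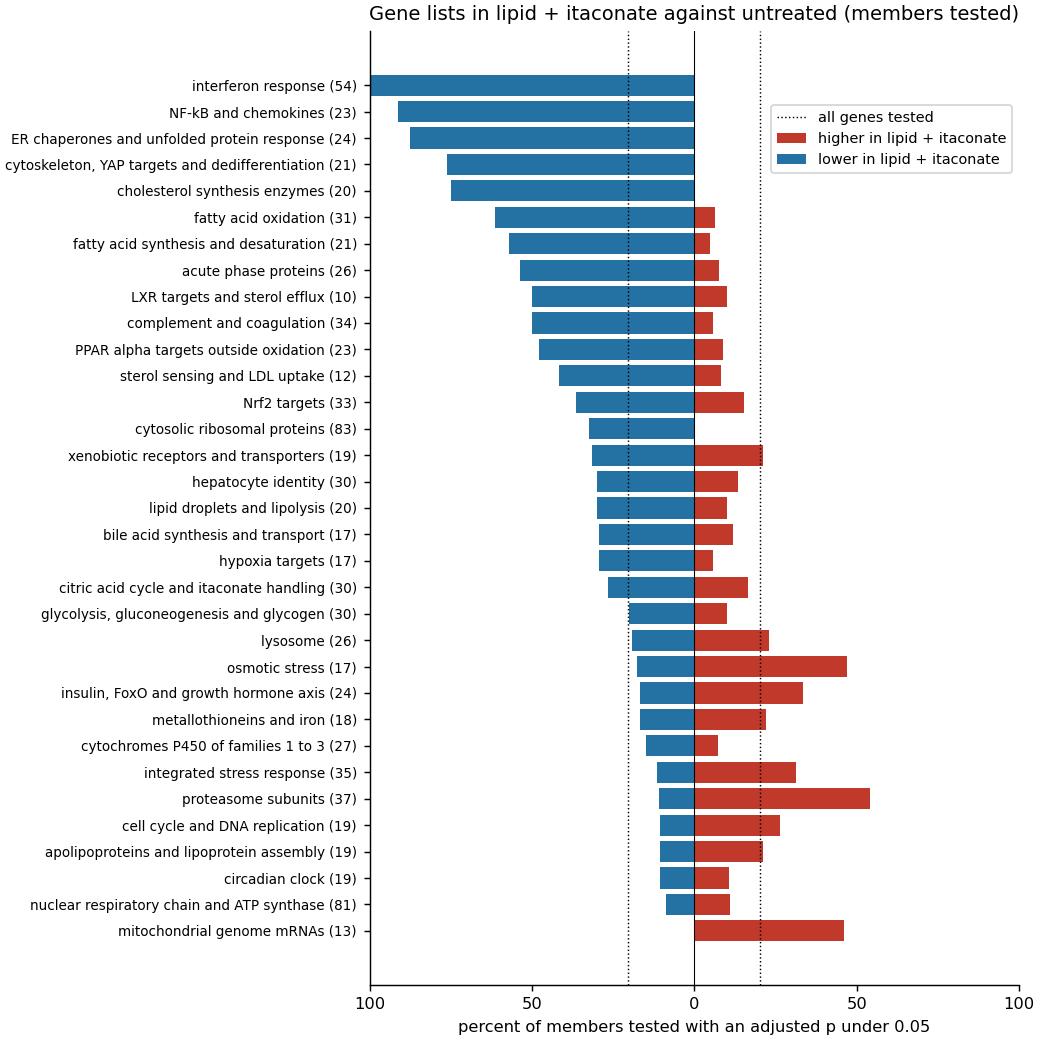
Percent of the tested members of each pathway list (cell type markers are not plotted) that were higher (right, red) or lower (left, blue) with an adjusted p under 0.05, with the number tested in parentheses; dotted lines mark 20.1% and 20.3%, the shares of all genes. The interferon response (54 of 54), NF-kB and chemokine (21 of 23) and ER chaperone (21 of 24) lists reach farthest to the left of those plotted.

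Chaperones of the ER, which the unfolded protein response induces, were lower by modest amounts. All 24 were tested and 21 were lower, none higher, at a median of -0.37; 2 changed by at least 1.5-fold. Without the letter in the model 10 of the 24 were lower, at the same median. Hsp90b1, the ER member of the HSP90 family, read 791, 592, 873 and 1148 CPM in untreated and 532, 451, 522 and 757 CPM in lipid + itaconate libraries (-0.58 ± 0.067, adjusted p = 8.69e-06). Its groups overlapped, with D highest and B lowest in both. Calr, the calcium-binding chaperone calreticulin, went from 606, 529.5, 582 and 695 CPM to 434, 371, 381 and 469.6 CPM without overlap (-0.54 ± 0.061, adjusted p = 6.06e-06). Sdf2l1, a partner of the ER HSP70, changed by -0.92 ± 0.12 (adjusted p = 2.98e-05). Derl3, a channel component of ER-associated degradation, changed by -1.29 ± 0.21 at 0.578 to 3.45 CPM, but its adjusted p was 0.0929 without the letter in the model.

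The promoters of these chaperones are shown for the ER stress response element (ERSE), a pair of half-sites for NF-Y and for ATF6 or XBP1. The letters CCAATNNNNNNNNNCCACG, on either strand, stood in 9 of the 19 list members with a promoter entry (47.4%) and in 0.167% of the 8999 tested genes. No member of the interferon list with an entry held them (0 of 41), and none of the 19 chaperone genes held the ISRE letters. The stretches lie on chr10:86705503-86705686 (Hsp90b1, minus strand), chr8:84847045-84847123 (Calr, minus strand) and chr10:75893212-75893290 (Derl3, plus strand) of GRCm38.p6, with the matches in capitals.
Hsp90b1: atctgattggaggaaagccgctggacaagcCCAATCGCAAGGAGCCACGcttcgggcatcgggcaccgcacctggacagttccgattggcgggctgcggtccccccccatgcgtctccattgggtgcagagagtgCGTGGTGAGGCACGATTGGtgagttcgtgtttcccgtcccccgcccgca
Calr: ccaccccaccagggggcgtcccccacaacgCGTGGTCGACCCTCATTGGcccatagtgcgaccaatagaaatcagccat
Derl3: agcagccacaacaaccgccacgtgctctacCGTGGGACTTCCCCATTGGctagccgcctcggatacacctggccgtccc
Hsp90b1 held 2 matches, 1 in each orientation, and Calr and Derl3 held 1 each on the strand opposite to the gene.

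Hspa1a and Hspa1b, neighbouring and near-identical genes of the stress-induced HSP70 that can exchange reads, were both among the 12 largest rises. Hspa1b read 91.5, 61.0, 83.5 and 100.1 CPM in untreated and 268, 162, 216 and 282 CPM in lipid + itaconate libraries, with no overlap (1.46 ± 0.068, adjusted p = 4.71e-10). Hspa1a read 28.6, 14.0, 11.1 and 12.9 CPM and 71.6, 41.3, 24.2 and 36.1 CPM (1.38 ± 0.11, adjusted p = 1.42e-07), where the untreated value of letter A exceeded the treated value of letter C. Hsph1, the large HSP70 relative that exchanges its nucleotide, rose by 0.38 ± 0.040. These 3 led the osmotic stress list, in which 8 of 17 tested were higher and 3 lower, or 6 and none without the letter in the model. In the list of the integrated stress response, targets of ATF4, 11 of 35 tested were higher and 4 lower, none by 1.5-fold. Those counts were 5 and 2 without the letter in the model and 7 and 2 without untreated library D, and 2 were lower without lipid + itaconate library D. Trib3, a pseudokinase of that response, changed by 0.28 ± 0.052 and the alanine transaminase gene Gpt2 by -0.34 ± 0.067.

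Called genes of protein synthesis and breakdown changed by small steps. Of 37 tested proteasome subunits, 20 were higher and 4 lower, at a median of 0.12. Psmd5, an assembly chaperone of the proteasome, rose by 0.32 ± 0.045 (adjusted p = 4.97e-05), whereas Psmb9, the immunoproteasome subunit that interferon induces, fell by 0.68 ± 0.12. The count of higher subunits was 8 without the letter in the model, 9 with the 8 libraries alone and 13 without untreated library B. Of 83 cytosolic ribosomal protein genes, 27 were lower and none higher at a median of -0.08; under library totals alone 12 were lower and 1 higher. The lower count was also 12 without the letter, 9 with the 8 libraries alone, 17 without untreated library A and 10 without untreated library C. Of the 13 mRNAs of the mitochondrial genome 6 passed, all higher, or 3 without the letter in the model. Their 13 changes ran from 0.14 to 0.59. For mt-Cytb, a subunit of complex III, the values were 2230.4, 2089, 2021 and 2092 CPM in untreated and 2712, 2596, 2965 and 2501 CPM in lipid + itaconate libraries (0.35 ± 0.072, adjusted p = 0.00115). For mt-Nd1, a subunit of complex I, they were 3045, 2935, 2764 and 3029 CPM and 3352, 3412, 4414 and 3542 CPM (0.32 ± 0.080), highest in treated library C. Of the 81 tested nuclear genes of the respiratory chain and ATP synthase, 9 were higher and 7 lower, at changes between -0.20 and 0.33, a share below the 40.4% of all genes. Of these, 3 were higher and 4 lower without the letter, 4 were higher without untreated library D, and 3 and 4 were lower without untreated and lipid + itaconate library C. Uqcc1, an assembly factor of complex III, had the smallest p (0.26 ± 0.045).

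The largest rise named by the rule was that of Txnip, the other member of the PPAR alpha list to rise. It is an arrestin that restrains glucose uptake and that glucose induces through ChREBP. It was at 30.1, 29.6, 23.5 and 21.2 CPM in untreated and at 144, 118, 60.7 and 71.2 CPM in lipid + itaconate libraries (1.87 ± 0.16, adjusted p = 5.71e-07). Treated letters A and B lay well above C and D, and no value overlapped. Other large rises were of genes in no list. Arl4d, a small GTPase, went from 3.65 to 5.34 CPM to 11.2 to 16.7 CPM (1.67 ± 0.11) and Cbx2, a Polycomb protein, from 9.89 to 10.2 CPM to 21.4 to 26.5 CPM (1.21 ± 0.068, adjusted p = 4.1e-09). Arvcf, a catenin of cell junctions, and Myl12b, a myosin light chain, rose by 1.3 ± 0.13 and 1.15 ± 0.10. Inhbe, the hepatokine activin E, is a member of the insulin list and rose by 1.19 ± 0.25 from a low level of 3.32 to 3.73 CPM. Lrrc14b (1.24 ± 0.10), Zfp52 (1.14 ± 0.15) and Mypop (1.14 ± 0.10) completed the 12 largest rises. Selenop, the selenium carrier of plasma, gained the most transcripts in CPM after mt-Nd1 among the genes that met the naming rule, from 2865 ± 237 to 3573 ± 707 CPM (SD, n = 4; 0.30 ± 0.070).

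The 2 largest falls named by the rule were of genes in no list. Ivl, involucrin, a cross-linked envelope protein of squamous epithelia, was at 10.9, 21.8, 19.1 and 31.4 CPM in untreated and at 0.512, 1.502, 2.202 and 3.00 CPM in lipid + itaconate libraries (-3.59 ± 0.21, adjusted p = 5.15e-09). Prelp, a proteoglycan of connective tissue, went from 14.5, 7.05, 9.79 and 9.45 CPM to 1.54, 0.732, 1.02 and 0.412 CPM (-3.48 ± 0.20, adjusted p = 4.54e-09). Sprr1a, another envelope protein that injured and cultured cells express, was far more abundant and went from 1093, 1144, 1166 and 1259 CPM to 374, 312, 279 and 371 CPM (-1.81 ± 0.089, adjusted p = 1.02e-09). None of the 3 overlapped. Smpd3, the neutral sphingomyelinase that makes ceramide, fell by 2.15 ± 0.14 on the log2 scale.

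Genes of the cytoskeleton, of the YAP pathway and of dedifferentiation, which rise as hepatocytes spread in culture, were lower: 16 of 21 tested, none higher, at a median of -0.28. Spp1, osteopontin, which cholangiocytes also make, went from 1045, 777, 589 and 477 CPM to 552, 397, 379 and 251 CPM (-0.86 ± 0.070, adjusted p = 2.6e-07), with letter A highest in both groups. The intermediate filament gene Vim changed by -0.72 ± 0.093, the annexin gene Anxa2 by -0.49 ± 0.057 and the YAP target Ankrd1, at low levels, by -1.40 ± 0.23. The 10 cholangiocyte markers, which hold Spp1, summed to between 616 and 1187 CPM in untreated and between 366 and 656 CPM in lipid + itaconate libraries, and all 4 tested were lower, among them Sox9 (-0.36 ± 0.055). Krt19, a defining keratin of that cell type, was at means of 0.281 and 0.103 CPM and Cftr at 0 in all 8 libraries, and the part of cholangiocyte RNA was not tested. In the hepatocyte identity list 9 of 30 were lower and 4 higher. The lower count was 14 without lipid + itaconate library B, 3 without untreated library A, 5 without untreated library C or D, 4 without lipid + itaconate library D and 3 without the letter. The higher count was 2 without untreated library A or B or the letter. Cebpa, a liver transcription factor, rose from 128, 144, 124 and 136 CPM to 188, 227, 179.9 and 179 CPM (0.54 ± 0.056, adjusted p = 2.89e-06), and Foxa3 rose by 0.41 ± 0.067. The urea cycle gene Otc fell (-0.43 ± 0.072).

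Each of the remaining lists had members that passed in both directions. The share lower ran from 10.5 to 36.4% and the share higher from 5.88 to 33.3%, beside 20.3% and 20.1% of all genes. For Nrf2 targets, 12 of 33 were lower and 5 higher, none by 1.5-fold, among them Idh1 (-0.55 ± 0.046), which makes cytosolic NADPH, and the thioredoxin reductase gene Txnrd1 (-0.33 ± 0.044). Without the letter in the model these counts were 6 and 3, and 3 were higher without library A or D of either group or untreated library B. Gsta3 (-0.30 ± 0.076) and Gclc (-0.26 ± 0.090) passed but not without the letter in the model. The study singles out Gsta3 on these samples as a Nrf2 target that changed with itaconate, which is a different comparison. Nqo1 was at 6.20 ± 1.60 and 6.64 ± 1.43 CPM (SD, n = 4) and Gclm at 270.4 ± 13.4 and 272 ± 22.8 CPM (SD, n = 4), within the spread between replicates. Of 27 cytochromes P450, 4 were lower and 2 higher, or 10 and 1 without lipid + itaconate library B and 2 and 1 without the letter. Cyp2b10, the usual reporter of the receptor CAR, went from 25.1, 35.1, 17.2 and 33.1 CPM to 56.8, 72.1, 28.0 and 62.2 CPM (0.97 ± 0.089, adjusted p = 8.56e-07); it was higher in each letter though the groups overlapped. Among xenobiotic receptors and transporters 6 of 19 were lower and 4 higher, with the drug exporter Abcb1b at -0.92 ± 0.080 and the receptor gene Ahr at -0.46 ± 0.061. In glycolysis, gluconeogenesis and glycogen metabolism 6 of 30 were lower and 3 higher. There 3 were lower without library C or D of either group, 8 were higher without lipid + itaconate library C, and 2 were lower and 1 higher without the letter. In the citric acid cycle and itaconate handling 8 of 30 were lower and 5 higher, such as Mut, the mutase that forms succinyl-CoA (-0.49 ± 0.049), and Idh2 (0.39 ± 0.062). The higher count was 3 without library B of either group, untreated library D or the letter. Acod1, the gene of the itaconate-making enzyme, was below the level of testing with 8 to 42 counts in each of the 8 libraries.

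Of 17 hypoxia targets 5 were lower and 1 higher. The lower count was 1 without untreated library A, lipid + itaconate library C or D or the letter, 2 without untreated library C or D, and 3 without untreated library B. Hif1a changed by -0.50 ± 0.039. In the insulin, FoxO and growth hormone list 8 of 24 were higher and 4 lower, with Foxo1, the transcription factor that insulin restrains, at 0.49 ± 0.078, the insulin receptor gene Insr at 0.28 ± 0.042 and Sesn3, a FoxO target, at -0.71 ± 0.087. Without untreated library C or the letter 5 were higher and 2 lower, 5 were higher without lipid + itaconate library D, and 2 were lower without untreated library D or lipid + itaconate library C. Among 26 lysosomal genes 6 were higher and 5 lower. Gpnmb, a glycoprotein of stressed lysosomes and macrophages, was the member past 1.5-fold, at -1.46 ± 0.13. Of 19 cell cycle genes 5 were higher and 2 lower, with the G1 cyclin gene Ccne1 at 0.50 ± 0.074, and of 18 genes of metallothioneins and iron 4 were higher and 3 lower, with the transferrin receptor gene Tfrc at -0.44 ± 0.064. Of the latter list 2 were higher without untreated library A or D or the letter. In the circadian clock 2 of 19 were higher and 2 lower, with 0 to 4 lower when 1 library was left out: 0 without untreated library A, B or D or lipid + itaconate library D, and 4 without lipid + itaconate library B.

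The combined state was next set beside lipid alone and itaconate alone, each against the same 4 untreated libraries. These comparisons share their controls, so values are given side by side and no overlap is counted. Against untreated, 5546 genes passed with lipid (2767 lower, 23.7%) and 573 with itaconate (344 lower, 2.95%), beside the 4716 with both. All 54 interferon genes were lower with lipid and 46 of them with itaconate, at medians of -0.87 and -0.61 beside -1.09 with both. Ifit3 was at 24.7, 16.8, 24.5 and 33.5 CPM with lipid and at 37.4, 24.1, 29.1 and 35.4 CPM with itaconate, each above the combination in the same letter, where it was at 11.8 to 17.5 CPM. In the NF-kB and chemokine list 21 of 23 were lower with lipid and 1 with itaconate, at medians of -0.87 and -0.03 beside -0.67. Cholesterol synthesis enzymes had 16 lower with lipid and 4 with itaconate (medians -0.55 and -0.26, beside -0.76). Of the ER chaperones 21 were lower with lipid and 1 with itaconate (medians -0.42 and -0.08, beside -0.37). Of the 11 tested macrophage markers 7 were lower and 1 higher with lipid, and 1 was lower and 1 higher with itaconate (medians -0.66 and 0.04, beside -0.89). The mitochondrial mRNAs had 1 higher with lipid and 2 with itaconate, beside 6 with both.

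**Figure D4:**
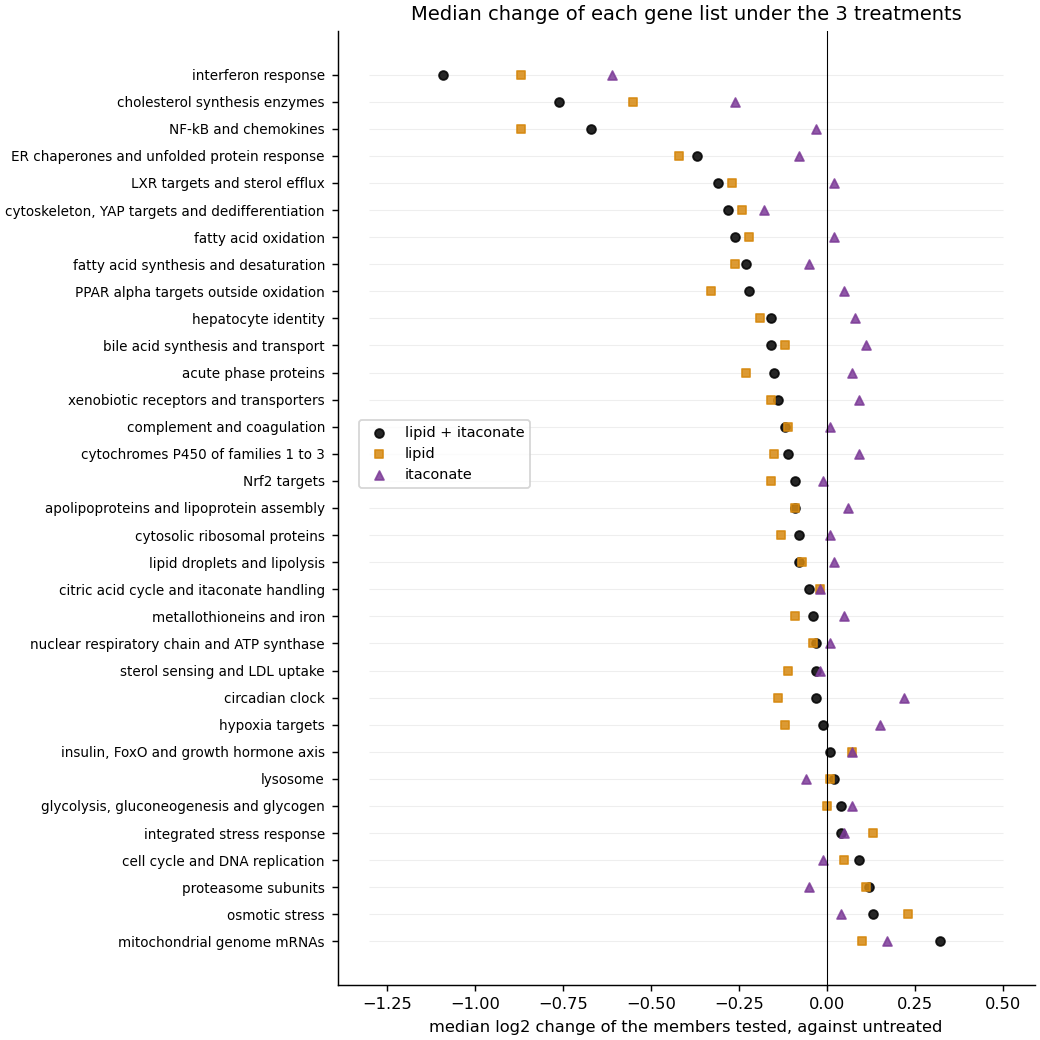
Median log2 change of each gene list against the same 4 untreated libraries (horizontal axis) in lipid + itaconate (black circles), lipid (orange squares) and itaconate (purple triangles). The interferon response lies at -1.09, -0.87 and -0.61 in that order, and the chemokine list at -0.67, -0.87 and -0.03.

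Against itaconate alone, 5483 genes differed in the combined state (47.0%), 2740 higher and 2743 lower. Against lipid alone 301 genes differed (2.58%), 154 higher and 147 lower, 54 of them by at least 1.5-fold. This second count rested on the pairing by letter and on single libraries: it was 9 without the letter in the model and 14 with the 8 libraries alone, and leaving out 1 library gave between 59 (lipid + itaconate A) and 891 (lipid + itaconate C). It was 136 and 156 without lipid + itaconate libraries B and D, 186 without untreated library A, and 141, 191, 148 and 87 without lipid libraries A, B, C and D.

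Of the genes named for this difference, 4 are given by library first. In each of them the level with both lay between those of lipid and untreated cells in each letter. Serpinb6a, a serine protease inhibitor, was at 34.0, 27.5, 24.6 and 28.7 CPM with lipid and at 18.3, 13.9, 14.0 and 20.1 CPM with lipid + itaconate, beside 10.3 to 11.5 CPM untreated. The change against lipid was -0.79 ± 0.082 (adjusted p = 0.000147), and this call held in every setting tried. Sfn, the 14-3-3 sigma protein, read 21.6, 29.9, 21.0 and 23.5 CPM with lipid and 14.7, 13.4, 12.5 and 15.3 CPM with both, beside 6.32 to 9.68 CPM untreated (-0.77 ± 0.12, adjusted p = 0.00314). Nrg4, a growth factor of the neuregulin family, moved the opposite way. Lipid libraries had 19.5, 25.0, 13.5 and 12.7 CPM and lipid + itaconate libraries 33.8, 43.5, 23.1 and 20.6 CPM, beside 28.3 to 44.0 CPM untreated (0.77 ± 0.073, adjusted p = 6.77e-05). Etfbkmt, the methyltransferase of the electron transfer flavoprotein, had 17.9, 28.0, 24.04 and 23.9 CPM with lipid and 25.8, 46.6, 43.7 and 40.3 CPM with both, beside 49.99 to 64.7 CPM untreated (0.72 ± 0.077, adjusted p = 0.000176). The naming rule took only genes that moved in 1 direction in all 4 letters, so that agreement between letters is no added support. Sfn, Nrg4 and Etfbkmt each lost the call in 1 of the 21 settings.

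Among the other named genes, Dppa3, a maternal chromatin factor (1.04 ± 0.15), Olfml2b (0.76 ± 0.13), the chemokine Cxcl1 (0.71 ± 0.11) and Angpt2, a ligand of the receptor TIE2 (0.62 ± 0.11), were higher with both than with lipid. Cxcl1 with both lay below untreated cells as well, so it too was between lipid and untreated cells. Rin1, a RAS effector (-0.94 ± 0.17), Hk2, hexokinase 2 (-0.77 ± 0.14), Tgfb2 (-0.76 ± 0.11) and Ifit3 (-0.76 ± 0.12) were lower with both than with lipid. Hk2, Rin1, Tgfb2 and Olfml2b did not pass against untreated, where their changes were -0.29, 0.06, -0.11 and 0.25. Each of these 8 genes lost its call against lipid in 1 to 4 of the 21 settings. Of the interferon list, 14 of 54 genes were lower with both than with lipid and 1 was higher. Acaca, raised by lipid to 126, 104, 128 and 138 CPM, was at 115, 92.2, 71.0 and 80.3 CPM with both (-0.48 ± 0.10, adjusted p = 0.0221).

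**Figure D5:**
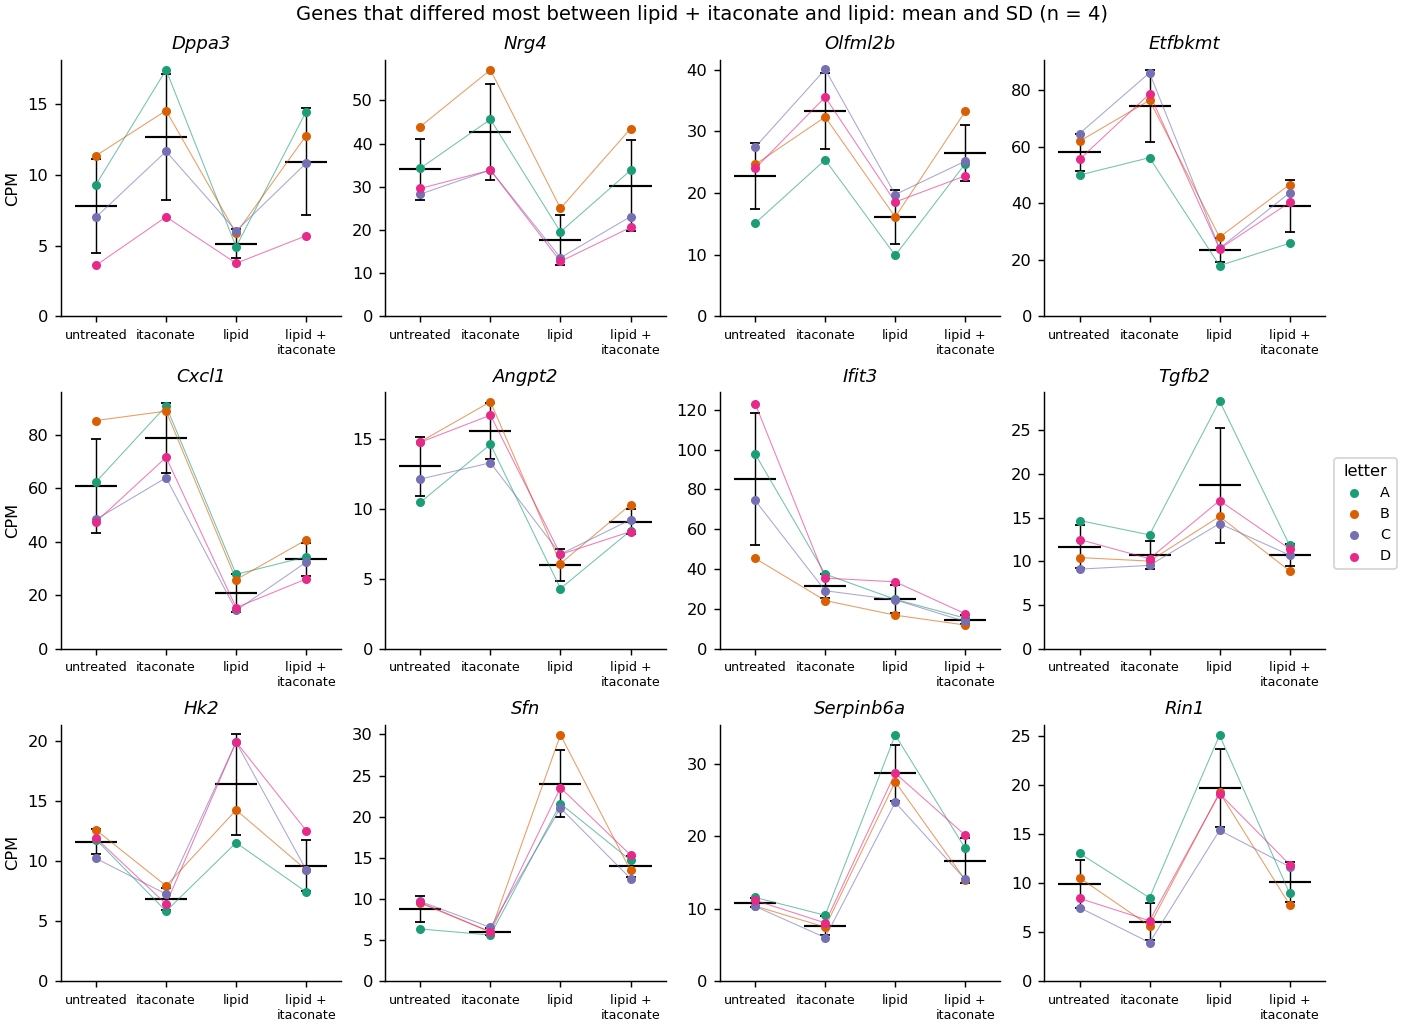
Level of the 12 genes named for their difference between lipid + itaconate and lipid, in all 16 libraries (vertical axes, CPM, starting at 0), with points and lines by letter and black bars for the mean and SD (n = 4). Serpinb6a fell from 24.6 to 34.0 CPM with lipid to 13.9 to 20.1 CPM with both, and Etfbkmt rose from 17.9 to 28.0 CPM to 25.8 to 46.6 CPM.

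Whether the 2 treatments together gave more or less than the sum of their log2 changes was tested with an interaction term. A single gene passed (0.00857% of those tested), while 1004 had an unadjusted p under 0.05, and DESeq2 gave 36 genes. In the interferon list none of the 54 tested members passed, but their terms were all positive, from 0.01 to 1.59. The median term of that list was 0.37, beside 0.004 over all genes. Its combined falls were thus smaller than the sums of the separate ones, though the list itself was not tested. For Cxcl10, the gene that passed, lipid lowered the level to 65.2, 53.2, 58.0 and 74.6 CPM and itaconate to 126, 109, 109 and 129 CPM, and the combination left it at 69.4, 54.2, 63.1 and 73.2 CPM, close to lipid alone. The interaction was 0.47 ± 0.065 on the log2 scale (adjusted p = 0.0299), that is, the combined fall was smaller than the sum of the separate ones, and 15 of 24 alternative settings put it past 0.05. Ifit1 had a term of 0.64 ± 0.12, Trex1, a cytosolic DNase, of 0.43 ± 0.083 and Pml, a nuclear body protein, of 0.41 ± 0.080, each with an adjusted p of 0.158. Arrdc4, an arrestin related to Txnip, was at 102, 79.4, 66.6 and 78.1 CPM with lipid and at 66.7, 57.1, 45.1 and 54.8 CPM with both, beside 43.7 to 54.5 CPM untreated (-0.47 ± 0.073, adjusted p = 0.0521). The coagulation factor gene F11 completed the 6 named genes (0.42 ± 0.083, adjusted p = 0.158).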

How the data were processed

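RNA was captured by poly-A selection from 16 cultures of primary mouse hepatocytes and sequenced as stranded libraries, of which the 8 untreated and lipid + itaconate libraries are compared here and the other 8 share the fit. Per the study's methods and processing notes, the authors demultiplexed with bcl2fastq 2.20, trimmed with Cutadapt 1.18, aligned with STAR 2.7.0f to mm10 with a GENCODE annotation, checked libraries with Picard 2.18.26 and quantified with RSEM 1.3.1. The deposited values are expected counts that the authors made with RSEM for 55450 genes, and 5.41% of them are not whole. They were rounded to whole numbers. RSEM divides reads between near-identical genes by estimate, and poly-A selection leaves transcripts without a tail to chance. The intervals and errors given cover these libraries only.

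The 11675 genes averaging 1 CPM or more across all 16 libraries were tested in R 4.3.3 with edgeR 4.0.16 (TMM, quasi-likelihood test), with treatment and letter as terms and Benjamini-Hochberg adjustment. The scripts were tested on simulated data. The letters were taken to pair the libraries on the basis of their correlations. After removing group means, the 24 correlations between same-letter libraries of different groups ran from 0.144 to 0.469, over 0.1 in every pair. The 72 other pairs had a median of -0.114, but some of them also passed 0.1. Untreated library D correlated at 0.178 with lipid + itaconate library C and at 0.144 with lipid + itaconate library D. No library repeated another within sampling noise. Alternatives were no letter, other scalings and filters, DESeq2 1.42.0, limma 3.58.1, the libraries of a comparison alone and each library left out. Leaving out letter B, and the lipid and itaconate libraries in turn, was added after seeing the data. The named genes were taken by rule. For the largest changes, genes had to be protein-coding, of at least 5 CPM and moving in 1 direction in all 4 letters. The 12 largest rises, 12 largest falls and 5 largest gains and losses in CPM were taken from them. The 3 smallest p of each list, its members past 1.5-fold and the genes the study names were added. Against lipid, the 6 largest in each direction were taken under the same conditions. For the interaction the 6 smallest p were taken. The members and lists were chosen with earlier results of these data known. Promoters came from RefSeq (GRCm38.p6), matched by symbol. Some genes that the rule named are not reported here.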

Additional observations from a re-analysis of the deposited data

Results flagged for a closer look

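Single libraries lay far from the other 3 of their group in 17 of 290 groups of 4 values looked at, and chance alone gives about 1 in 20 such groups. Of these, 7 concerned ribosomal RNA-like and small RNA transcripts. Gm42418 was highest in lipid + itaconate library B at 37019 CPM and in untreated library A at 7097 CPM, and Lars2 in the same libraries at 4267 and 759 CPM. Rn7s1 was highest in them at 133 and 114 CPM, and Rn7s2 in lipid + itaconate library B at 133 CPM. The lowest untreated total was 22346049 expected counts, and the highest untreated share of mitochondrial transcripts was 4.14%. 

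Among the named genes, 1 untreated library was highest for Abcc2 (299 CPM), Apoa5 (112 CPM), Hspa1a (28.6 CPM) and Tnfaip3 (52.7 CPM) and lowest for Pdk4 (236 CPM) and Sfn (6.32 CPM). In the lipid + itaconate libraries Arvcf had 1 low value (5.35 CPM) and Pdk4 1 high value (210.2 CPM). In the main fit the response of Cxcl10 to itaconate differed with and without lipid, with an interaction of 0.47 on the log2 scale. As given above, most other settings put this interaction past the threshold, and no gene passed without the letter in the model.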

How the results depend on the processing

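Of the 124 genes given values above that passed against untreated, 114 passed in every setting, and 10 did not without the replicate block. Without that block on the letters, 3281 genes passed against untreated, 9 against lipid and 0 in the interaction. The list counts stayed within 1.5 times in 1181 values and moved further in 213. Without lipid + itaconate library B, or without letter B (3856 genes), the main count kept within 1.5 times, as did the count past 1.5-fold in every setting. Against lipid the count was 725 with no filter, 509 with DESeq2, 14 with the 8 libraries alone, 105 without letter B and 59 to 891 with 1 library left out. The interaction gave 2 genes with RLE normalization, 0 with library totals, 2 with filterByExpr, 231 with no filter, 36 with DESeq2 and 0 to 8 with 1 library left out. Gclm, which did not pass, turned sign with RLE and DESeq2 (-0.0), without lipid + itaconate A (-0.04), untreated B (-0.02), lipid + itaconate B (-0.01) and letter B (-0.03). Rin1, which did not pass either, did so without lipid + itaconate C (-0.16) or D (-0.04) or untreated D (-0.03). With 1 library left out, Gclm ran from -0.04 to 0.06 and Rin1 from -0.16 to 0.26. The cause was not tested. Genes under 5 CPM had a median standard error of 0.197, so small changes there were not detectable.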

Other observations

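Transcript classes other than protein-coding genes were not described above. Of 78 antisense transcripts tested, 20 were lower and 2 higher in lipid + itaconate than in untreated libraries (28.2% in all). Of 127 lincRNAs 25 were lower and 16 higher (32.3% in all). Over all genes tested 20.3% were lower and 20.1% higher. The share that passed also depended on the level, at 28.0% under 5 CPM, and levels were not compared between these classes. Of 194 processed pseudogenes, 10 were lower and 5 higher (7.73% in all), beside 41.5% of the 11036 protein-coding genes. These classes were chosen after their values were seen and no test of the difference between them was run.

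Txnip differed by letter in the combined state. It was at 154, 113, 144 and 145 CPM in lipid libraries A to D and at 144, 118, 60.7 and 71.2 CPM in lipid + itaconate libraries A to D. In letters C and D the values with both lay well below those with lipid, and in A and B they were close to them. This was seen in the plotted values and was not tested.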
